A study of Mus musculus with 6 samples.

Results

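The tropomyosin genes of the mouse, Tpm1, Tpm2, Tpm3 and Tpm4, were followed through the deposited gene table and splicing tables. They are 4 of 55331 genes in the gene table and account for 29 of 61715 listed splicing events. The members were picked by gene symbol. They were of interest because Tpm1 had a changed level and because exons of Tpm1 and Tpm2 were among the largest splicing differences of the same files, so those values are given here as a description. RNA came from small intestinal crypt cells of C57BL/6 mice aged 60 days, in 3 WT and 3 PTBP1_KO samples. WT carried floxed Ptbp1 alleles alone (Ptbp1f/f), and PTBP1_KO carried the same alleles with a Cre recombinase that tamoxifen switches on (Ptbp1f/f;Vil-creER+/-). The villin sequence that drives this Cre is active in intestinal epithelium, so other cells in the preparation keep their Ptbp1 alleles. Tamoxifen, 100 mg/kg, was injected into WT and PTBP1_KO alike on 2 successive days, and 20 h later crypt cells were taken. The labels do not say whether each sample is 1 animal, so the authors' p-values may measure technical spread only.

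Tropomyosins are coiled-coil proteins that lie end to end along actin filaments and set which myosins and filament-severing proteins reach them. Forms of these proteins come from alternative start exons, internal exons of which only one is kept, and alternative last exons. PTBP1, the protein whose gene was targeted here, binds pyrimidine-rich RNA and often represses exons, and tropomyosin transcripts are textbook targets of this protein family. In Tpm2 the upstream exon of the internal pair is known from smooth muscle and nonmuscle cells, and the downstream exon from skeletal muscle.

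The internal pair is shown first, because the results turn on which of its exons is used. In Tpm1, Tpm2 and Tpm3 the exons are 76 nt long and coding in GENCODE M21, and each swap therefore keeps the reading frame. They are printed 5′ to 3′ on the transcribed strand, from GENCODE M21 transcripts on GRCm38 (mm10). Capitals mark bases that differ from the other exon of the same pair.
Tpm1 upstream exon, chr9:67032466-67032541, minus strand: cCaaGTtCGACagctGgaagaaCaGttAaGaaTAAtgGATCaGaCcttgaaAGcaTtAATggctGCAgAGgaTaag
Tpm1 downstream exon, chr9:67031951-67032026, minus strand: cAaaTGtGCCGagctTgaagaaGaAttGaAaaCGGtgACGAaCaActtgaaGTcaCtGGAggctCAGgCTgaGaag
Tpm2 upstream exon, chr4:43519003-43519078, minus strand: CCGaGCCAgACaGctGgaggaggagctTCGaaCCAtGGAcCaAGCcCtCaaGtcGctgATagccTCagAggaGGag
Tpm2 downstream exon, chr4:43518644-43518719, minus strand: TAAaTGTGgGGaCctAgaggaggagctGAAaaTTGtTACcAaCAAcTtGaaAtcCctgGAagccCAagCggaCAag
Tpm3 upstream exon, chr3:90088401-90088476, plus strand: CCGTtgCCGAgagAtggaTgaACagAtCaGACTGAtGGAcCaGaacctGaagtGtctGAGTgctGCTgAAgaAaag
Tpm3 downstream exon, chr3:90089048-90089123, plus strand: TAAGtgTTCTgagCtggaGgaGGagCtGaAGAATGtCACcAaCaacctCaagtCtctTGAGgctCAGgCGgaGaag

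The exons of a pair differed at 33 of 76 bases in Tpm1, 35 in Tpm2 and 37 in Tpm3. Exons at the same place in the pair were more alike between genes than the exons of 1 gene. Downstream exons of Tpm1, Tpm2 and Tpm3 shared 73.7% to 76.3% of their bases with each other, and upstream exons 61.8% to 65.8%. Within a gene the identity was 51.3% to 56.6%. Tpm4 has 1 annotated exon of this length, printed with capitals where it differs from the downstream exon of Tpm1.
Tpm4 exon, chr8:72146452-72146527, plus strand: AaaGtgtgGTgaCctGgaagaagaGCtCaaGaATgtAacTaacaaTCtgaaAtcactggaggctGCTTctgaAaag

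The Tpm4 exon shared 71.1% to 73.7% of its bases with the 3 downstream exons and 43.4% to 55.3% with the 3 upstream exons. By sequence, then, the single exon of Tpm4 was nearer to the downstream kind. Intron sequence, where PTBP1 is known to bind beside such exons, was not analysed here.

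**Figure D1:**
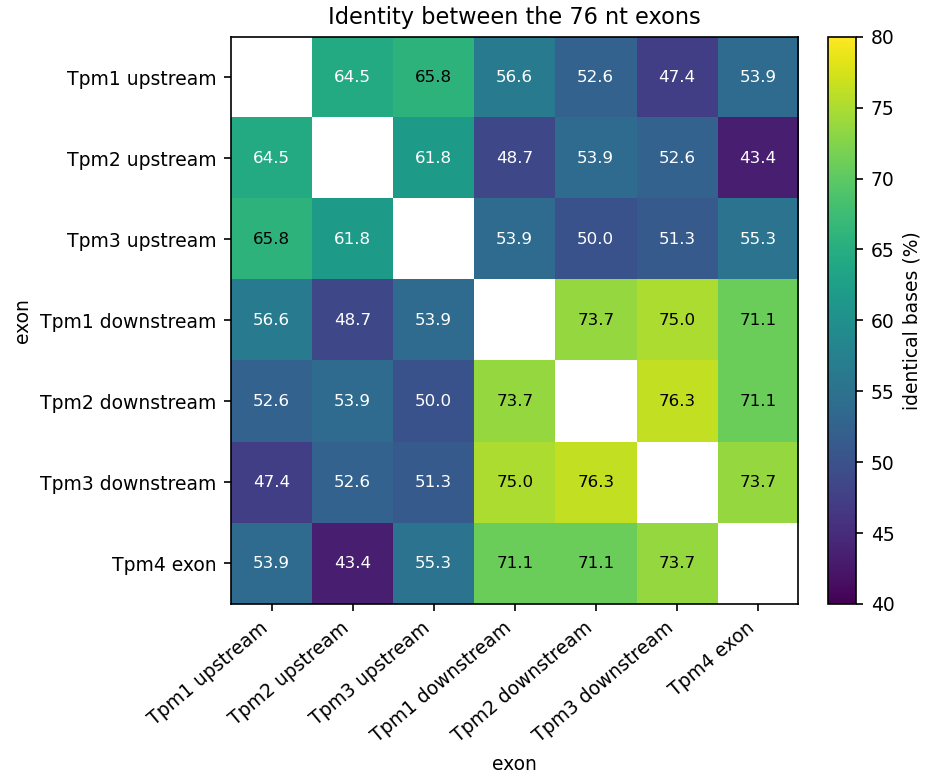
Percent of identical bases (colour, and number in each cell) between the 76 nt exons of the 4 tropomyosin genes, compared without gaps. Downstream exons and the Tpm4 exon form a block of 71.1% to 76.3%, and upstream exons one of 61.8% to 65.8%.

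Gene levels were read from the gene table, which holds 1 FPKM value per group (fragments scaled by transcript length and library size) and therefore no spread. FPKM is scaled by length, so the 4 genes can be ordered. In WT, Tpm3 was highest at 293 FPKM, followed by Tpm1 at 192 FPKM, Tpm4 at 53.6 FPKM and Tpm2 at 1.15 FPKM. In PTBP1_KO the order was the same, with 283 FPKM for Tpm3, 121 FPKM for Tpm1, 52.5 FPKM for Tpm4 and 1.01 FPKM for Tpm2. With no value per sample, it cannot be said which neighbours in this order differ beyond their spread. Summed over the 4 genes, tropomyosin came to 540 FPKM in WT and 458 FPKM in PTBP1_KO. Tpm1 made up 35.6% of that sum in WT and 26.4% in PTBP1_KO, while Tpm3 made up 54.3% and 61.9%.

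Tpm1 (ENSMUSG00000032366.15, chromosome 9, 67022590 to 67049406, minus strand) was the only member called at the authors' Cuffdiff q below 0.05. Its level in PTBP1_KO was 63.0% of that in WT, and the authors' deposited table gave a log2 fold change of -0.67 with q = 0.0125. Of all genes tested, 0.537% were called and 0.149% were called with a lower level, and nothing is read from that share because Tpm1 was chosen with this value known. Tpm2 (ENSMUSG00000028464.16, chromosome 4, 43514711 to 43523765, minus strand) stood at 88.02% of WT, with p = 0.618 in the authors' deposited Cuffdiff table. Tpm3 (ENSMUSG00000027940.18, chromosome 3, 90072649 to 90100902, plus strand) stood at 96.5%, with p = 0.770 in the authors' deposited Cuffdiff table. Tpm4 (ENSMUSG00000031799.10, chromosome 8, 72130174 to 72160855, plus strand) stood at 97.8%, with p = 0.828 in the authors' deposited Cuffdiff table. The median log2 ratio of PTBP1_KO to WT, after adding 1 to each FPKM, was -0.07 over the 4 genes and 0.02 over the 15460 genes tested.

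**Figure D2:**
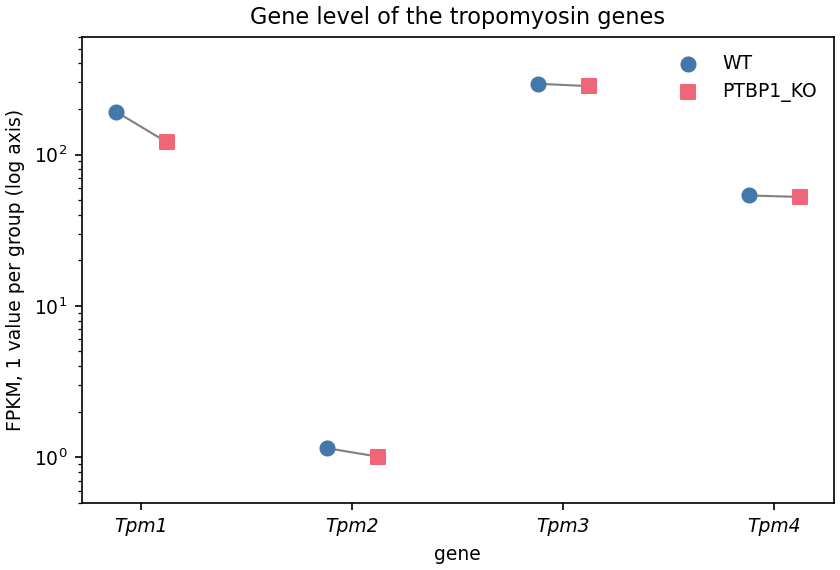
FPKM of each tropomyosin gene on a log axis, with 1 circle for WT and 1 square for PTBP1_KO and no error bars because the table holds 1 value per group. Tpm1 went from 192 to 121 FPKM, and Tpm2 lay near 1 FPKM in both groups.

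Muscle cells of the gut wall carry much Tpm1 and Tpm2, so their markers were read in the same table. All 6 smooth muscle markers, Acta2, Actg2, Myh11, Des, Cnn1 and Tagln, were below 1 FPKM in both groups. Their summed level was 0.556 FPKM in WT and 1.13 FPKM in PTBP1_KO. The 4 fibroblast markers summed to 1.34 FPKM in WT and 0.583 FPKM in PTBP1_KO, and Pecam1, an endothelial marker, had 0.584 FPKM and 0.629 FPKM. Of the leukocyte markers, Ptprc had 5.96 FPKM and 9.26 FPKM and Cd3e 5.66 FPKM and 8.68 FPKM, in the same order of groups, and their part in the tropomyosin values was not tested. The defining markers of the labelled cells were present: the 6 epithelial markers lay between 218 and 2191 FPKM over both groups, and the 5 crypt markers between 6.78 and 2470.0 FPKM. Lyz1, a Paneth cell marker among them, stood at 1471 FPKM (WT) and 2470.0 FPKM (PTBP1_KO), the authors' deposited Cuffdiff table giving p = 0.0522, and its part in the Tpm1 difference was not tested. In PTBP1_KO the other crypt markers, Olfm4, Mki67, Ascl2 and Lgr5, stood at 89.9% to 99.9% of WT. In bulk samples, fewer cells of a type and less RNA per cell cannot be told apart.

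The targeted gene, Ptbp1, stood at 230.02 FPKM in WT against 122.8 FPKM in PTBP1_KO, at q = 0.0125 in the authors' deposited Cuffdiff table. The splicing tables list reads for a first set and a second set of 3 libraries, and their headers name no genotype for either. Directions below are therefore between sets, each library's value is given, and no mean with SD and no test was computed from the libraries. Each library had 32226951 to 39774266 reads in the skipped exon table, with a read counted again wherever it falls in several events. No pair of libraries had identical reads. As a reference for the sets, the 34 nt exon of Ptbp2, a textbook exon repressed by PTBP1, had inclusion levels of 0.866, 0.840 and 0.948 in the first set. In the second set the Ptbp2 exon had 0.0258, 0.0313 and 0.0528. No genotype was assigned from these values.

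A called event had an FDR below 0.05 in the authors' deposited table, a difference in inclusion level of at least 0.1 either way, and on average at least 20 reads per library. Inclusion level, from 0 to 1, is the share of the form that keeps the exon among the 2 forms compared in an event. It comes from reads scaled by form length and is not a share of all transcripts of the gene, so 1 exon can have unlike levels in different events. Of the 29 tropomyosin events, 24 reached 20 reads and 7 were called, beside 1.56% of all events that reached it. By type they were 5 skipped exon events, beside 1.68% of all of that type, and 2 exclusive exon events, beside 1.02%. Tpm1 had 5 of the 7 and Tpm2 had 2, and Tpm3 and Tpm4 had none. The 7 events share exons and reads: they come down to 5 exons, 3 in Tpm1 and 2 in Tpm2. Without a minimum difference, 12 of the 24 events passed the FDR, 7 in Tpm1, 2 in Tpm2 and 3 in Tpm3, beside 3.76% of all events. The libraries of the 2 sets did not overlap in 13 of the 24 (6 in Tpm1, 3 in Tpm2, 4 in Tpm3), beside 9.15% of all events. Nothing is read from these shares, since the genes were picked with these differences known.

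**Figure D3:**
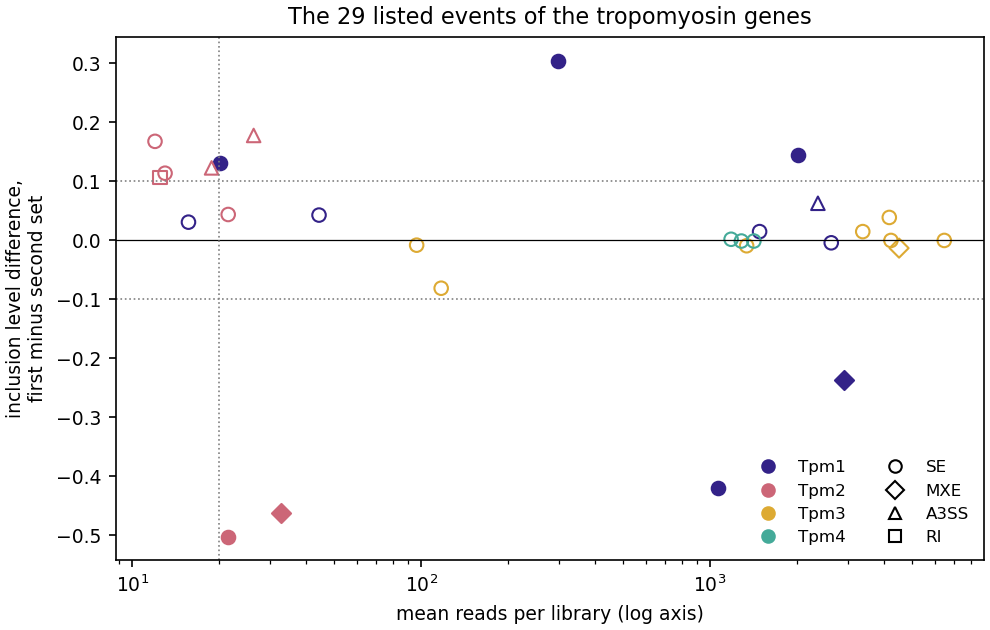
The 29 events by mean reads per library (log axis) and by the authors' inclusion level difference, the first set minus the second set. Filled symbols were called, colour gives the gene and shape the event type (SE skipped exon, MXE exclusive exons, A3SS alternative 3' splice site, RI retained intron). Dotted lines mark 20 reads and differences of 0.1, and the called events of Tpm2 lie near the limit of 20 reads.

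The Tpm1 pair was read from the junctions that tell its exons apart. Reads that join the exon before the pair directly to the downstream exon numbered 391, 289 and 388 in the first set and 25, 29 and 28 in the second set. Reads that join the upstream exon to the exon after the pair numbered 985, 1327 and 938 in the first set and 2462, 2675 and 2603 in the second set. Every library of the first set was thus higher for the downstream exon and lower for the upstream exon than every library of the second set.

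As a share of both junctions, the Tpm1 downstream exon took 28.4%, 17.9% and 29.3% in the first set. The 95% exact binomial intervals of these libraries ran from 16.0% to 31.8%. In the second set the share was 1.01%, 1.07% and 1.06%, with intervals from 0.652% to 1.54%. Intervals here cover counting error only. Library 2 of the first set stood below the other two of its set by more than its interval, and the sets did not overlap. The authors' deposited table gave a difference of -0.236 for the upstream exon in the exclusive exon event, and its FDR was listed as 0.

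Scaled to all reads of a library in the skipped exon table, the 2 Tpm1 junctions changed unequally. The median of the downstream junction, per 1000000 of those reads (RPM), was 9.76 RPM in the first set and 0.755 in the second set, a ratio of 12.9. The median of the upstream junction was 30.02 and 74.3, a ratio of 0.404. Together the junctions came to 41.9, 45.6 and 33.3 RPM in the first set and 75.1, 83.9 and 70.6 in the second set. The first set therefore had fewer reads over the pair as a whole in every library, and the gain of the downstream junction was smaller than the loss of the upstream one. Whether these sets match the WT and PTBP1_KO columns of the gene table is not stated in the headers.

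Reads that left out both Tpm1 exons were rare, with 11, 6 and 13 in the first set and 15, 16 and 18 in the second set. The event that measures the upstream exon against the joining of its 2 constitutive neighbours accordingly had inclusion of 0.986 to 0.995 in all 6 libraries, and the authors' deposited table gave a difference of -0.004 with FDR = 1. The pair was thus nearly always represented by an exon, and what differed was which one. Skipping of both would remove 76 nt, which is no multiple of 3.

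The skipped exon table lists the same Tpm1 exons in other contexts. Set against the downstream exon, the upstream exon had inclusion of 0.481, 0.625 and 0.527 in the first set. It had 0.966, 0.962 and 0.962 in the second set, a difference of -0.419 in the authors' deposited table. The downstream exon, set against the direct joining of the constitutive neighbours, had 0.970, 0.979 and 0.967 in the first set and 0.698, 0.658 and 0.645 in the second set. That difference was 0.305 in the authors' deposited table. Set against the upstream exon, the downstream exon had 0.164, 0.109 and 0.203 in the first set and 0.0126, 0.0135 and 0.0154 in the second set, and the authors' deposited table gave 0.145. These 3 events and the exclusive exon event draw on the same reads and are 1 observation.

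**Figure D4:**
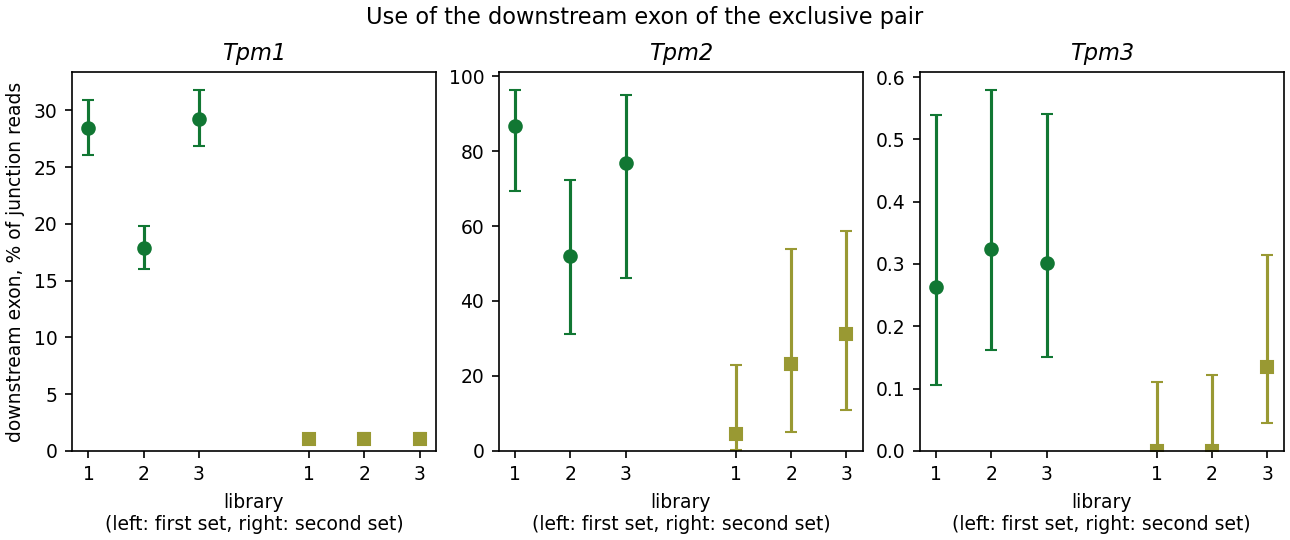
Share of junction reads (%) that use the downstream exon of the pair in each library, with 95% exact binomial intervals, and with its own scale for each gene. Libraries of the first set (circles) lie above those of the second set (squares) in all 3 genes, from 17.9% to 29.3% against about 1% in Tpm1.

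Tpm2, the gene of muscle beta-tropomyosin, had few reads here, as its level of about 1 FPKM implies. Junction reads of the downstream exon numbered 26, 13 and 10 in the first set and 1, 3 and 5 in the second set. Junction reads of the upstream exon numbered 4, 12 and 3 in the first set and 21, 10 and 11 in the second set. The downstream share was 86.7%, 52.0% and 76.9% in the first set and 4.55%, 23.1% and 31.3% in the second set.

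The sets did not overlap in Tpm2, and library 2 of the first set was again nearest to the second set. The 95% exact interval of that library, from 31.3% to 72.2%, and that of library 3 of the first set, from 46.2% upward, overlapped those of libraries 2 and 3 of the second set, which reached 53.8% and 58.7%. The authors' deposited table gave a difference of -0.462 for the upstream exon in the exclusive exon event, with FDR = 5.87e-06 and a mean of 32.8 reads. For the upstream exon set against the downstream exon it gave -0.502, with FDR = 0.000174 and a mean of 21.5 reads. No Tpm2 event had a mean of 50 reads, so none could be called at that minimum.

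Tpm3, the most abundant member, used almost only the upstream exon. Junction reads of the upstream exon numbered 2662, 3385 and 3629 in the first set and 3348, 3036 and 3695 in the second set. Junction reads of the downstream exon numbered 7, 11 and 11 in the first set and 0, 0 and 5 in the second set. As shares these are 0.262%, 0.324% and 0.302% in the first set, and 0 of 3348, 0 of 3036 and 0.135% in the second set. In the libraries with a count of 0, the 95% exact binomial intervals reached up to 0.110% and 0.121%. That of library 3 of the second set ran from 0.0439% to 0.315%. The interval of library 1 of the first set began at 0.106%, so each interval of the second set overlapped it.

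For the exclusive exon event of Tpm3 the authors' deposited table gave a difference of -0.013 with FDR = 4.51e-06. Upstream inclusion was 0.977, 0.984 and 0.983 in the first set and 0.996, 0.994 and 0.993 in the second set. The direction was that of Tpm1 and Tpm2, and the size was below the minimum of 0.1. Measured by the 2 junctions alone, the difference was -0.00251. The exclusive exon event also counts reads inside the exons, and GENCODE M21 lists a Tpm3 exon that spans both of them. The part of either in the gap between these values was not tested.

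**Figure D5:**
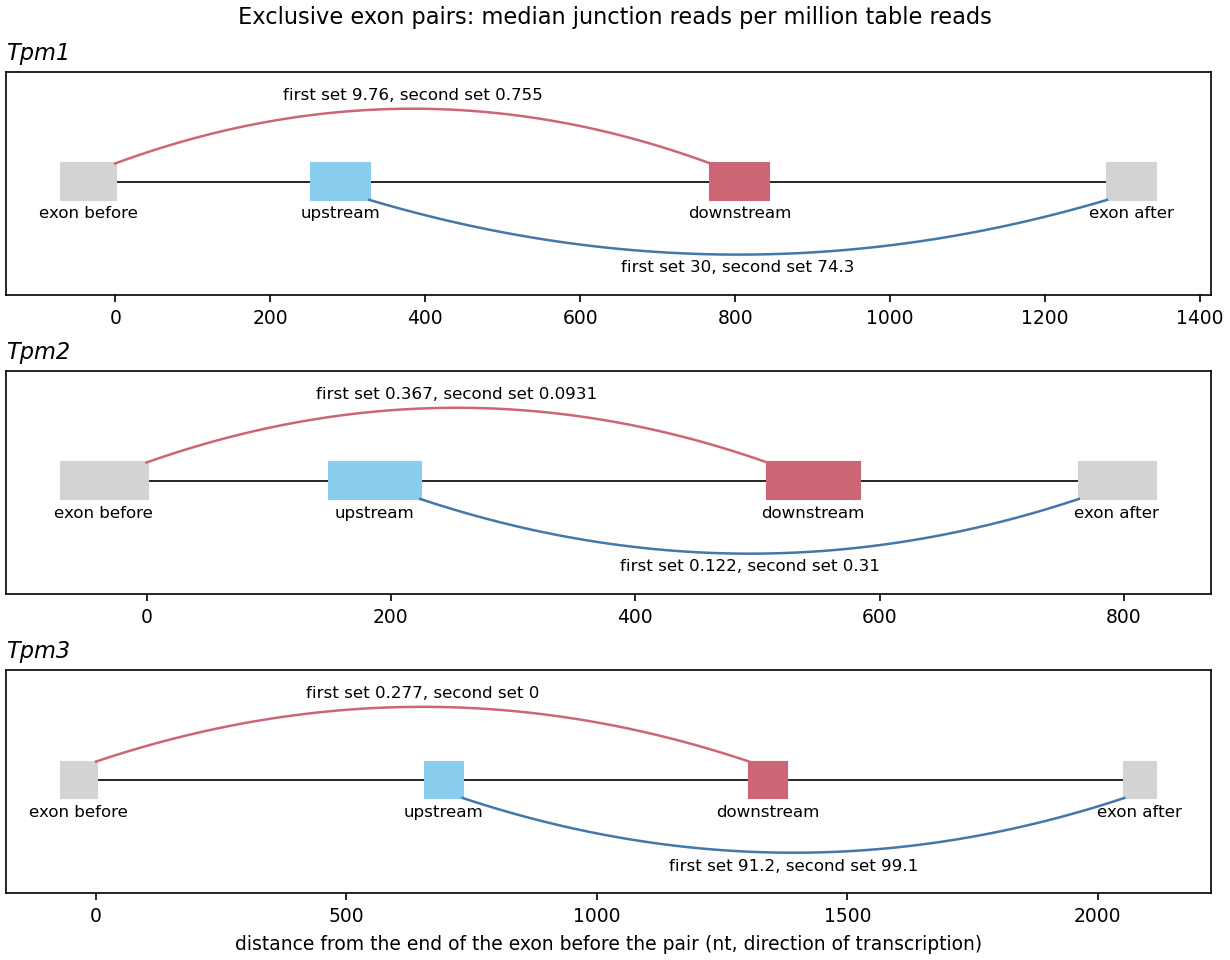
Exons (boxes, to scale within a gene) and the junctions that tell the exons of a pair apart (arcs), by distance in nt from the exon before the pair. Numbers are median RPM in each set, on the reads of the skipped exon table: for Tpm1 the downstream junction had 9.76 and 0.755, and the upstream junction 30.02 and 74.3.

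The pairs lie in short introns. The intron between the exons of a pair is 439 nt in Tpm1, 283 nt in Tpm2 and 571 nt in Tpm3. The intron before the upstream exon is 252 nt, 148 nt and 656 nt in the same order. In each library of the first set the order of the genes by downstream share was Tpm2, then Tpm1, then Tpm3, and the same order held in the second set.

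The last coding exon is another place where tropomyosin forms of muscle and nonmuscle cells differ. Tpm1 and Tpm3 each list a 79 nt exon between the last shared exon and the main last exon, printed with capitals at the 9 bases that differ between them.
Tpm1 79 nt exon, chr9:67029664-67029742, minus strand: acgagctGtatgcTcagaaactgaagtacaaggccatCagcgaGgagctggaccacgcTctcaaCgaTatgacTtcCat
Tpm3 79 nt exon, chr3:90091013-90091091, plus strand: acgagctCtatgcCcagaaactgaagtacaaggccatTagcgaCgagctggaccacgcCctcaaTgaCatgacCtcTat

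These exons, coding in GENCODE M21, shared 88.6% of their bases, more than any pair of the 76 nt exons. Set against the joining to the main last exon, both were little used and both were used more in the first set. In Tpm1, inclusion was 0.0131, 0.0139 and 0.0233 in the first set and 0.00240, 0.00228 and 0.00213 in the second set, which rests on 18, 22 and 35 against 7, 7 and 7 inclusion reads. The authors' deposited table gave a difference of 0.015 with FDR = 0.0414. In Tpm3, inclusion was 0.0564, 0.0562 and 0.0623 in the first set and 0.0235, 0.0164 and 0.0180 in the second set. The authors' deposited table gave 0.039, with an FDR listed as 0. Neither set overlapped the other, and both differences were below 0.1.

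The last exon of Tpm1 also has alternative 3' splice sites. The longer form, chr9:67022593-67024565, had a level of 0.112, 0.0952 and 0.113 in the first set and 0.0444, 0.0451 and 0.0412 in the second set. The shorter form starts, on this minus strand, at 67023441, and its reads are also the skipping reads of the 79 nt exon. The authors' deposited table gave 0.063, the largest difference of a Tpm1, Tpm2 or Tpm3 event that passed the FDR and stayed below 0.1. In Tpm2 the last exon has a like choice, with the longer form, chr4:43514711-43516003, at 0.392, 0.264 and 0.227 in the first set and 0.166, 0.113 and 0.0695 in the second set. There the authors' deposited table gave 0.178 with FDR = 0.0582, so that event was not called.

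The weakest call was for 1 of a pair of internal 126 nt exons near the distal start of Tpm1. Only the long forms use these exons. The more 3' of them, chr9:67047786-67047911, had inclusion of 0.914, 1 and 1 in the first set and 1, 0.803 and 0.717 in the second set. The sets overlapped. The authors' deposited table gave 0.131 with FDR = 0.0223, at 20.2 reads on average and as few as 10 in a library, just inside both limits. Leaving out library 3 of the second set gave 0.0697, and leaving out library 1 of the second set gave 0.211. The other exon of that pair, chr9:67048124-67048249, had a mean of 15.7 reads and FDR = 1 in the authors' deposited table.

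The Tpm4 exons were kept in nearly all reads. In Tpm4 the 3 listed exons, with means of 1182 to 1417 reads, had inclusion of at least 0.994 in every library, and the authors' deposited table gave differences from -0.001 to 0.002. In Tpm3 the exons of 134 nt and 71 nt before the pair had differences of 0 in the authors' deposited table. The upstream exon of the Tpm3 pair, set against its downstream partner, had inclusion of 0.988 to 0.991 in the first set and 0.995 to 1 in the second set. For that event the authors' deposited table gave a difference of -0.009, which did not pass the FDR. The Tpm3 downstream exon, set against the upstream exon, had inclusion of 0.0303, 0.0165 and 0.0246 in the first set and 0.0101, 0.00770 and 0.00878 in the second set. The sets did not overlap, and the authors' deposited table gave a difference of 0.015 with FDR = 1.35e-11. The pair exons of Tpm2 also appear in 3 skipped exon events and 2 longer forms, which had means of 12 to 21.5 reads and were not called. In the 3 skipped exon events the authors' deposited table gave 0.114 and 0.168 for the downstream exon and 0.044 for the upstream exon, with FDR = 1 in each. It gave 0.123 with FDR = 1 for a 677 nt form that runs from the upstream exon to the constitutive exon after the pair, and 0.107 with FDR = 0.0644 for retention of the same stretch. Beside other last exons, the 79 nt exons had differences of 0.043 in Tpm1 and of -0.081 and -0.008 in Tpm3, with FDR = 1 in the authors' deposited table. In those events their inclusion over the libraries was high, from 0.455 to 0.877 in Tpm1. In Tpm3 it was 0.602 to 0.869 and 0.977 to 1.

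The other genes of the actin filament were read from a list of 30 partners of tropomyosin. Of the 25 that were tested, none was called at Cuffdiff q below 0.05, beside 0.537% of all genes tested. An unadjusted Cuffdiff p below 0.05 was held by 2, Tmod4 and Myl9, both below 1 FPKM. The share of all genes below that p was not counted, so nothing is read from these 2. Actb, which encodes cytoplasmic actin, stood at 1343 FPKM (WT) and 1289 FPKM (PTBP1_KO). Myl6, a myosin light chain, had 934 FPKM and 953 FPKM, and Cfl1, the filament-severing cofilin, had 668 FPKM and 725 FPKM. The median log2 ratio of the tested partners was 0.10, beside 0.02 over all genes tested. On the same scale Tpm1, chosen with its change known, stood at -0.66. Tpm2, Tpm3 and Tpm4 stood at -0.10, -0.05 and -0.03. Among 19 partners with an event of 20 reads, Myh14 and Myl6 had a called event, beside 6.61% of all such genes. The list was chosen with earlier results of these data known, and nothing is read from this share. A 24 nt exon of Myh14, a nonmuscle myosin heavy chain (chr7:44657417-44657440), had inclusion of 0.864, 0.889 and 0.824 in the first set and 0.992, 0.973 and 0.975 in the second set. A 45 nt exon of Myl6 (chr10:128491720-128491764) had 0.401, 0.430 and 0.515 in the first set and 0.670, 0.663 and 0.585 in the second set.

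Of 16 smooth muscle and stromal genes, 9 were tested and none was called by Cuffdiff, beside 0.537% of all genes tested. The collagen genes Col3a1, Col1a2 and Col1a1, 3 in number, had an unadjusted Cuffdiff p below 0.05 and lower values in PTBP1_KO. The share of all genes below that p was not counted, so nothing is read from this count. Smtn stood at 9.71 FPKM (WT) and 9.001 FPKM (PTBP1_KO), Vim 4.90 FPKM and 6.28 FPKM, and Col3a1 0.749 FPKM and 0.328 FPKM. Apart from Smtn and Vim, the genes of this list, 14 in number, had less than 1 FPKM in both groups. Of a list of 12 splicing regulators, Ptbp1 alone was called for its level, beside 0.537% of all genes tested. An unadjusted Cuffdiff p below 0.05 was held by 2, Ptbp1 and Ptbp2, and nothing is read from that count either. Ptbp2, a paralogue of Ptbp1, stood at 19.04 FPKM (WT) and 35.9 FPKM (PTBP1_KO), with p = 0.00135 and q = 0.156 in the authors' deposited Cuffdiff table. Raver1, a known partner of PTBP1, stood at 60.2 FPKM (WT) and 60.3 FPKM (PTBP1_KO), and Celf1 had 45.2 FPKM and 52.7 FPKM. Of the 10 regulators with an event of 20 reads, 7 had a called event: Celf1, Esrp1, Mbnl2, Ptbp1, Ptbp2, Ptbp3 and Rbm4, beside 6.61% of all genes with such an event. Nothing is read from this share, since the list was chosen with earlier results of these data known. In the called Rbm4 event the sets overlapped, with 0.754, 0.640 and 0.613 in the first set and 0.746, 0.836 and 0.762 in the second set. Mbnl2, a muscleblind protein, kept a 36 nt exon (chr14:120403336-120403371) at 0.818, 0.638 and 0.748 in the first set and 0.323, 0.338 and 0.402 in the second set.

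Exons of other genes with the most similar levels over the 6 libraries were sought among 35515 skipped exon events with 20 reads in every library. Likeness was the root mean square difference in inclusion, smaller being more alike, and the 6 libraries share their depth and their set. Nearest to the Tpm1 upstream exon set against its partner were exons of Lmo7 (0.0843), Extl3 (0.0891), Zcchc2 (0.0981), 2310001H17Rik (0.109) and Senp7 (0.120). The Lmo7 exon (57 nt, chr14:101915688-101915744) had 0.509, 0.644 and 0.604 in the first set and 0.845, 0.868 and 0.852 in the second set. Nearest to the Tpm2 upstream exon were exons of App (0.156), Etl4 (0.157), Esrp1 (0.176), Akap11 (0.179) and Cyfip1 (0.183). The App exon (168 nt, chr16:85043576-85043743) had 0.356, 0.354 and 0.269 in the first set and 0.637, 0.614 and 0.680 in the second set.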

How the data were processed

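The submitters' processing notes name the build mm10 and the tools STAR 2.6.1d, Cuffdiff and Cufflinks, with Trimmomatic 0.38 and bcl2fastq 2.20. The authors deposited 1 FPKM value per group and gene, with a log2 fold change, a p-value and a q-value from Cuffdiff, per the file headers. The MATS tables hold whole-number reads per splice form and library, a p-value, an FDR and the inclusion level difference, a score from -1 to 1 made by the authors, per the file headers. The version of the splicing tool is not given in the sources used here. Left out were 10 columns that list inclusion levels by library.

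Inclusion was recomputed per library from inclusion and skipping reads divided by the deposited form lengths, and the set differences deviated from the authors' deposited ones by at most 0.00112. Skipping reads were used as junction counts. The recomputation was tested on simulated data made with the same length formula and with far more reads than the Tpm2 events hold. That test therefore checks the arithmetic only. Sets of libraries were not tied to genotypes, so no model was fitted over libraries. Intron sequence was not used here, so a planned search for pyrimidine motifs was not run. One marker gene is not reported here. Members, lists and tests were chosen with earlier results of these data known. Named genes were the members, every called gene and the 3 highest in WT of each list, Ptbp1, a Ptbp2 exon, and the 5 exons most like a Tpm1 or Tpm2 exon; the Ptbp2 level, Lyz1, Tmod4, Myl9, Col1a2, Col1a1 and the Myl6, Myh14 and Mbnl2 exons were picked out after their values were seen. Tpm1, Tpm2 and Tpm3 have the identifiers and ends of GENCODE M21; Tpm4 differs from that release in version and ends, and its gene coordinates are those of the deposited table. Scripts ran in Python 3.11.15 with scipy 1.17.1, pandas 2.3.3, matplotlib 3.10.9 and numpy 2.4.6.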

Additional observations from a re-analysis of the deposited data

How the results depend on the processing

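No paired analysis was possible because the columns carry no replicate numbers. With q below 0.01, 0 tropomyosin genes were called by Cuffdiff, against 1 without that limit. Requiring a log2 fold change of 1 or more either way also gave 0. Ptbp1, the targeted gene, had the same Cuffdiff p of 5e-05 and q of 0.0125 as Tpm1, and a log2 fold change of -0.906. Both limits thus leave out Ptbp1 too, and nothing about Tpm1 is read from them. The 7 called events became 4, all of Tpm1, at a mean of 50 reads, which no Tpm2 event reached. With 20 reads in every library they also became 4. With reads not divided by form length, the recomputed differences were 0.202, 0.228 and -0.331 for the 3 best covered Tpm1 skipped exon events called, 0.0222 and 0.0579 for the 79 nt exons of Tpm1 and Tpm3, and 0.226 for the Tpm1 last exon. These moves follow from the form lengths, which differ within those events. From junction reads alone, an alternative chosen after seeing the data, the Tpm3 pair gave -0.00251. All 91 recomputed values of the 11 inclusion differences kept their sign, with each library left out in turn among the alternatives. Where the sets do not overlap, leaving out a library, summing reads or dropping the form lengths cannot change the sign. This holds for all of these events but that of the Tpm1 exon of 126 nt, so the kept signs are no evidence of stability. The log2 ratios of the 4 genes kept their sign with a pseudocount of 0.1, without one, and after centring. A pseudocount cannot change the sign of such a ratio. Low reads limit Tpm2, whose events hold 12 to 32.8 reads per library on average.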
